A study of Mus musculus with 203 samples.

Results

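Club cell secretory genes were followed in the airway and parenchyma of mice exposed to house dust mite (HDM) extract, cigarette smoke and dexamethasone. They are the 8 genes Scgb1a1, Scgb3a1, Scgb3a2, Bpifa1, Bpifb1, Cyp2f2, Reg3g and Aldh1a1, taken by name from the 43346 gene identifiers of the count table and read in all 20 combinations of week, tissue and exposure. The series holds 43 bulk RNA-seq libraries from 3 weeks and 160 from 11 weeks of lung tissue from female Balb/C mice, labelled 18-20 weeks of age, with airway and parenchyma separated by blunt dissection. It asks how airway and parenchymal expression differs in models of asthma, of chronic obstructive pulmonary disease and of their overlap.

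At 3 weeks, 11 airway and 12 parenchyma libraries came from controls given phosphate buffered saline (PBS), and 10 of each tissue came from mice given HDM by the nose on 5 days of each week (HDM). At 11 weeks, each of 8 exposures had 10 airway and 10 parenchyma libraries. These were PBS.AIR, PBS.AIR.DEX, HDM.AIR, HDM.AIR.DEX, PBS.CS, PBS.CS.DEX, HDM.CS and HDM.CS.DEX, where AIR is normal air, CS is cigarette smoke on 5 days per week for 8 weeks, and DEX is dexamethasone, a synthetic glucocorticoid, in week 11. The labels give HDM 3 times weekly over weeks 4 to 11 for these mice, and do not say whether they also had HDM in weeks 1 to 3. All controls received PBS in place of HDM. No gene was deleted or added in any group. The labels do not say which airway and parenchyma libraries came from the same mouse, so p-values cover the spread between libraries only. Library totals ranged from 13003087 to 40240680 estimated counts, with a median of 28090612, and no pair of libraries within a group agreed within sampling noise. Levels are given as CPM, counts scaled to the same library total, and as TPM, which also divides by gene length, where genes are compared with each other. A gene "passed" at a Benjamini-Hochberg adjusted p under 0.05 in limma-voom over all genes tested, and was "called" when the log2 fold change was also at least 1 in size.

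Club cells are the non-ciliated secretory cells of the conducting airways, and in mice they line much of the bronchioles. They release small secretoglobins and antimicrobial BPI-fold proteins into the airway lining fluid, carry out much of the lung's detoxification by cytochrome P450 enzymes, and can regenerate themselves, ciliated cells and mucous cells after injury. Scgb1a1 encodes club cell secretory protein (CC10), the standard marker of the cell. Scgb3a1 and Scgb3a2 encode related secretoglobins. Bpifa1 (SPLUNC1) and Bpifb1 (LPLUNC1) encode secreted host defence proteins of the BPI-fold family, Reg3g encodes a secreted antibacterial C-type lectin, Cyp2f2 encodes a cytochrome P450 that activates naphthalene, and Aldh1a1 encodes a retinaldehyde dehydrogenase. Several of these proteins are also made outside club cells, for example by other secretory cells of the large airways.

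All 8 are protein-coding genes. On GRCm38 (mm10) with GENCODE annotation, Scgb1a1 (ENSMUSG00000024653.2) lies at chr19:9083636-9087958 on the minus strand and Aldh1a1 (ENSMUSG00000053279.6) at chr19:20492715-20643465 on the plus strand. Bpifa1 (ENSMUSG00000027483.7, chr2:154142880-154149219) and Bpifb1 (ENSMUSG00000027485.11, chr2:154190818-154220369) are neighbours on the plus strand of the same chromosome. Scgb3a1 (ENSMUSG00000064057.8) lies at chr11:49663610-49665118 on the plus strand and Cyp2f2 (ENSMUSG00000052974.7) at chr7:27119909-27133660 on the plus strand. Reg3g (ENSMUSG00000030017.2) lies at chr6:78466269-78468872 on the minus strand. Scgb3a2 is ENSMUSG00000038791.10.

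The promoters of 5 members are shown because their genes moved in different directions in parenchyma in the 11-week HDM.AIR group, Scgb3a1, Bpifb1 and Reg3g on the one side and Bpifa1 and Cyp2f2 on the other. Each is the 250 bases before the RefSeq start (GRCm38.p6), 5′ to 3′ on the gene's strand. RefSeq windows were found for 6 of the 8 members.
Scgb3a1, chr11:49663345-49663594, plus strand: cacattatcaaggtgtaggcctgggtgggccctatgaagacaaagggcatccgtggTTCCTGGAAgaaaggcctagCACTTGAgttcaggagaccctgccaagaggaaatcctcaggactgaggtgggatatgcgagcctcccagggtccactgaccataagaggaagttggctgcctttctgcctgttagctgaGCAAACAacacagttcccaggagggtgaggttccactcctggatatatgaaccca
Bpifb1, chr2:154190568-154190817, plus strand: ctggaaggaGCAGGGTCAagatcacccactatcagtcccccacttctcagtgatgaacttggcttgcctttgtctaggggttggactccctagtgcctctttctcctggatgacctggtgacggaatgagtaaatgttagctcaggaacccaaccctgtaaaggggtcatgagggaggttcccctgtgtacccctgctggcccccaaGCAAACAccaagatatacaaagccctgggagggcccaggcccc
Reg3g, chr6:78468875-78469124, minus strand: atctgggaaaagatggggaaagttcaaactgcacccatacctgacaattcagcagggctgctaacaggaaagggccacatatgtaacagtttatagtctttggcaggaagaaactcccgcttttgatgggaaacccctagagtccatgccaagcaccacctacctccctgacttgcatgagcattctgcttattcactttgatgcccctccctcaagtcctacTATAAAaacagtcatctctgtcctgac
Bpifa1, chr2:154142630-154142879, plus strand: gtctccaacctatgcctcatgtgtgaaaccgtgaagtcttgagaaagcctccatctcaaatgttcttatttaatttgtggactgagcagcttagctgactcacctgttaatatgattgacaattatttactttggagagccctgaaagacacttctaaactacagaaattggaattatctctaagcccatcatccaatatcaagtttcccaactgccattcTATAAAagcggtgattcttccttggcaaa
Cyp2f2, chr7:27119705-27119954, plus strand: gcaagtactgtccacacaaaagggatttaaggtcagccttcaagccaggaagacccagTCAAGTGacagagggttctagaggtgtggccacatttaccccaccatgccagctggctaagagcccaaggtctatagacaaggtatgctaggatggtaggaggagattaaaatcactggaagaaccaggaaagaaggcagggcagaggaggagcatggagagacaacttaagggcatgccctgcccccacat

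Capitals mark matches to 7 motifs, searched on both strands except TATAAA, which was searched on the gene's strand. They were the forkhead motifs GCAAACA and GTAAACA, the NKX2-1 motif CACTTGA, the STAT motif TTCNNNGAA, the C/EBP motif TTGCNNAA, the antioxidant response motif TGACNNNGC and the TATA box TATAAA. A match here is a run of letters and not a measured binding site. GCAAACA began at base -55 of Scgb3a1 and base -43 of Bpifb1, counted from the start, and was present in 4.31% of 32536 RefSeq windows of the same length. Scgb3a1 also held TTCNNNGAA at -194 (7.04% of windows) and CACTTGA at -174 (2.6%). CACTTGA was found on the opposite strand of Cyp2f2 at -192, where it reads TCAAGTG, and TGACNNNGC on the opposite strand of Bpifb1 at -241 (10.2% of windows). TATAAA was present at -29 of Bpifa1 and -27 of Reg3g (7.55% of windows). Of the remaining motifs, TTGCNNAA (9.57% of windows) matched at -13 of Aldh1a1, whose window is not printed, and GTAAACA (3.17%) matched none of the 6 members. No marked match overlapped another.

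The labelled tissues were checked against basal cell keratins of the large airway. Library X109 was singled out after the data were seen. Krt5 was 2.28 to 99.7 CPM in all airway libraries but 1 and 0 to 1.61 CPM in the parenchyma libraries. Library X109, labelled 11-week HDM.AIR airway, had 0.391 CPM of Krt5 and 0.568 CPM of Krt15, against 2.79 to 246 CPM of Krt15 in the other airway libraries and 0 to 6.87 CPM in parenchyma. Its Bpifa1 was 24.9 CPM, against 202.9 to 20818 CPM in the other airway libraries and 1.89 to 432 CPM in parenchyma. X109 stood with the parenchyma on Krt5, Krt15 and Bpifa1 and against its label. Its Sftpc was 11854 CPM, against 1350 to 19399 CPM in the other airway libraries and 7380 to 24981 CPM in parenchyma. Its Ager was 1736 CPM, against 166.84 to 2516 CPM and 962.3 to 3900 CPM, so neither gene placed it. Reg3g was the only member with every HDM.AIR airway library, X109 included, above every HDM.AIR parenchyma library. Bpifa1 is itself a member and Krt15 the gene most like it, so neither is independent of the members' results. X109 was kept, and the values without it are given beside the HDM.AIR airway results.

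In PBS airway at 3 weeks, Scgb1a1 alone reached 185710 ± 51480 TPM (mean ± SD, n = 11), more than every other member together. The next members per length were Scgb3a1 at 8250 TPM, Bpifa1 at 7931 TPM, Scgb3a2 at 7279 TPM and Cyp2f2 at 3121 TPM. Aldh1a1 at 836 TPM, Reg3g at 540 TPM and Bpifb1 at 205 TPM were lowest. The 8 genes held 7.08% ± 1.67 of all counts in PBS airway and 3.22% ± 0.91 in PBS parenchyma (SD, n = 11 and 12), and 2.98% ± 1.19 and 1.33% ± 0.24 after HDM (n = 10 each).

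The members differed in how far their levels in airway exceeded those in parenchyma. At 3 weeks, Bpifa1 was 3588, 5552 and 12738 CPM (lowest, median, highest) in PBS airway and 33.7, 114.5 and 385 CPM in PBS parenchyma. Reg3g was 287, 553 and 1576 CPM against 6.28, 18.3 and 119.2 CPM. Bpifb1 was 206, 336 and 870 CPM against 4.799, 11.7 and 50.2 CPM. Every airway library lay above every parenchyma library for these 3 antimicrobial genes, with log2 differences of 5.76, 4.77 and 4.87. Scgb3a1 (log2 difference 3.72) and Scgb3a2 (1.75) were also separated without overlap, while Scgb1a1 (0.77, adjusted p = 0.00018) and Cyp2f2 (1.03) overlapped between the tissues. Aldh1a1 differed by 0.93 with no overlap. All 8 members passed this limma-voom test and 6 were called higher in airway, where 10.0% of all genes tested were. The call for Cyp2f2 rested on the threshold, at 0.98 without library X141. The non-overlapping members were 6 of 8, against 7.29% of all genes.

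The tissue difference was of the same order in the 11-week PBS.AIR groups, where all 8 members were called higher in airway without overlap (13.4% of genes called higher, 10.9% without overlap). The log2 differences there ran from 1.22 for Scgb1a1 and 1.23 for Aldh1a1 to 5.59 for Reg3g and 6.66 for Bpifa1. In HDM.AIR mice 5 of 8 were called higher in airway (2.99% of genes), and Scgb1a1 differed by 0.18 (adjusted p = 0.52). Without X109 those 5 were again called, and Scgb1a1 differed by 0.23 (adjusted p = 0.34).

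**Figure D1:**
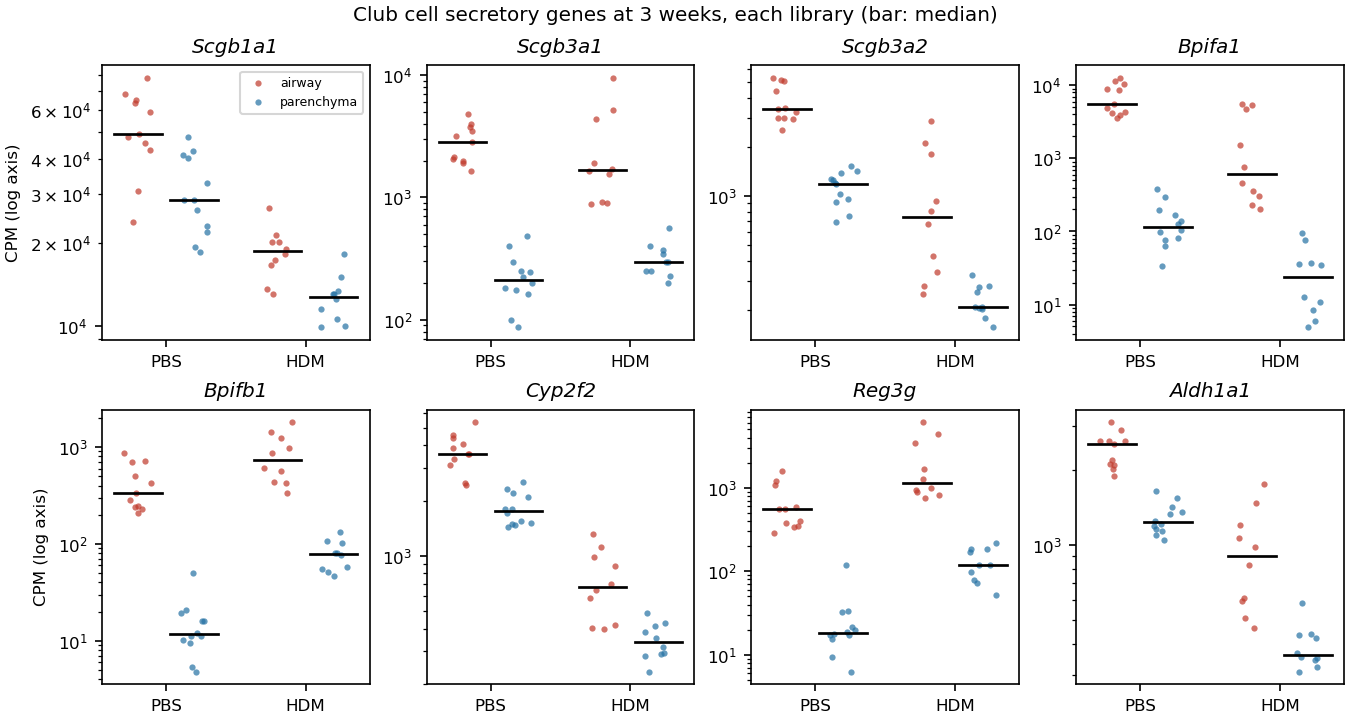
CPM (log axis) of each of the 8 members in every 3-week library, by tissue and exposure, 1 point per library. Cyp2f2 and Aldh1a1 in HDM airway and parenchyma lie below every PBS library of the same tissue, while the medians of Bpifb1 and Reg3g are higher after HDM.

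After 3 weeks of HDM, the detoxification enzymes and most secretoglobins were downregulated in both tissues, whereas Bpifb1 and Reg3g were upregulated. In the airway, Cyp2f2 fell 5.41-fold, Scgb3a2 4.96-fold and Bpifa1 7.15-fold, and Reg3g rose 2.76-fold. In bulk tissue, a smaller share of club cells among all cells and less RNA per club cell cannot be told apart.

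Cyp2f2 was 2448, 3597 and 5374 CPM in PBS airway and 398, 675 and 1306 CPM in HDM airway. The groups did not overlap, and the fitted log2 fold change was -2.44 ± 0.19 (SE, limma-voom adjusted p = 9.3e-15). Aldh1a1, which makes retinoic acid from retinaldehyde, was 1882, 2531 and 3108 CPM against 462, 904 and 1750 CPM, again without overlap, at -1.50 ± 0.18 (adjusted p = 5e-10). Reads of Aldh1a1 may be shared with its close relative Aldh1a7 in the estimation of counts.

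Among the secretoglobins, Scgb1a1 was 23791, 49162 and 78204 CPM in PBS airway and 13066, 18584 and 26617 CPM in HDM airway. In 9 of 10 HDM libraries it was below every PBS library, with a log2 fold change of -1.47 ± 0.18 (adjusted p = 7.7e-10). Scgb3a2, which encodes a secreted relative of Scgb1a1, was 2531, 3389 and 5298 CPM against 248, 741 and 2873 CPM. It fell by 2.31 ± 0.32 on the log2 scale (adjusted p = 2.4e-08), again with 9 of 10 HDM libraries below all PBS libraries. Scgb3a1 did not follow them: it was 1651, 2820 and 4776 CPM in PBS airway and 889, 1670 and 9493 CPM in HDM airway, and its log2 fold change of -0.43 ± 0.37 did not pass (adjusted p = 0.28).

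The BPI-fold genes went opposite ways although they are neighbours on chromosome 2. Bpifa1 was 3588, 5552 and 12738 CPM in PBS airway and 202.9, 615 and 5495 CPM in HDM airway. The wide spread within HDM left 7 of 10 libraries below all PBS libraries, at -2.84 ± 0.67 (limma-voom adjusted p = 0.00024). The log2 fold change was -1.87 in edgeR and in DESeq2. Bpifb1 was 206, 336 and 870 CPM in PBS airway and 336, 735 and 1815 CPM in HDM airway, overlapping, with a log2 fold change of 0.96 ± 0.31 (adjusted p = 0.0059) just under the threshold for a call. It was called, at 1.02 to 1.12, without any 1 of the libraries X23, X81, X103, X143, X161, X163, X181 and X183. Reg3g was 287, 553 and 1576 CPM against 751, 1141 and 6137 CPM, with 4 of 10 HDM libraries above every PBS library, at 1.46 ± 0.41 (adjusted p = 0.0017).

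In the airway at 3 weeks, 7 of 8 members passed, where 74.6% of all genes did, so passing alone says little here. The called members were 5 lower and 1 higher, against 11.8% and 12.1% of all genes, and 2 of 8 were lower without overlap, against 9.31%.

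In parenchyma the 7 members that passed in the airway changed in the same directions at 3 weeks. Bpifb1 was 4.799, 11.7 and 50.2 CPM in PBS and 47.1, 78.6 and 134.2 CPM in HDM parenchyma, with 9 of 10 HDM libraries above every PBS library and a log2 fold change of 2.45 ± 0.31 (adjusted p = 2.8e-09). Reg3g was 6.28, 18.3 and 119.2 CPM against 51.7, 119.3 and 219.8 CPM, at 2.44 ± 0.35 (adjusted p = 5.3e-08), with 5 of 10 HDM libraries above the PBS range. Bpifa1 fell from 33.7, 114.5 and 385 CPM to 4.85, 23.7 and 94.01 CPM, at -2.61 ± 0.50 (adjusted p = 1.2e-05). The 4 others that fell did so without overlap, with log2 fold changes of -1.29 for Scgb1a1, -2.35 for Scgb3a2, -2.46 for Cyp2f2 and -1.78 for Aldh1a1. Cyp2f2 there was 1429, 1749 and 2537 CPM in PBS and 233, 338 and 487 CPM after HDM. Scgb3a1 was 86.6, 213 and 483 CPM against 199.1, 295 and 567 CPM. Its log2 fold change of 0.49 ± 0.27 did not pass (adjusted p = 0.099), but it passed without HDM library X24 (0.62, adjusted p = 0.046), PBS library X82 (0.60, 0.041) or PBS library X202 (0.62, 0.043), and with quality weights (0.57, 0.017) or each tissue fitted apart (0.60, 0.025). The median log2 fold change of all genes in this comparison was -0.13.

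In 3-week parenchyma, 7 of 8 members were called, 5 lower and 2 higher, against 15.1% and 14.5% of all genes, and 77.7% of genes passed. The 4 members lower without overlap compare with 20.5% of all genes.

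The HDM change was then compared between the tissues by its interaction term. Bpifb1 differed, its change being smaller in the airway by 1.49 ± 0.44 on the log2 scale (adjusted p = 0.017), and 17.3% of genes passed this test. For Scgb1a1 the difference was -0.18 with a 95% interval of -0.65 to 0.30, and for Cyp2f2 it was 0.02 (-0.48 to 0.52). Reg3g differed by -0.97 (-2.04 to 0.09, adjusted p = 0.22), and the interval for Bpifa1 was wide, at -1.87 to 1.42. Scgb3a1 differed by -0.92 (adjusted p = 0.16), and by -1.24 (adjusted p = 0.04) without library X63, the highest HDM airway library for that gene.

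**Figure D2:**
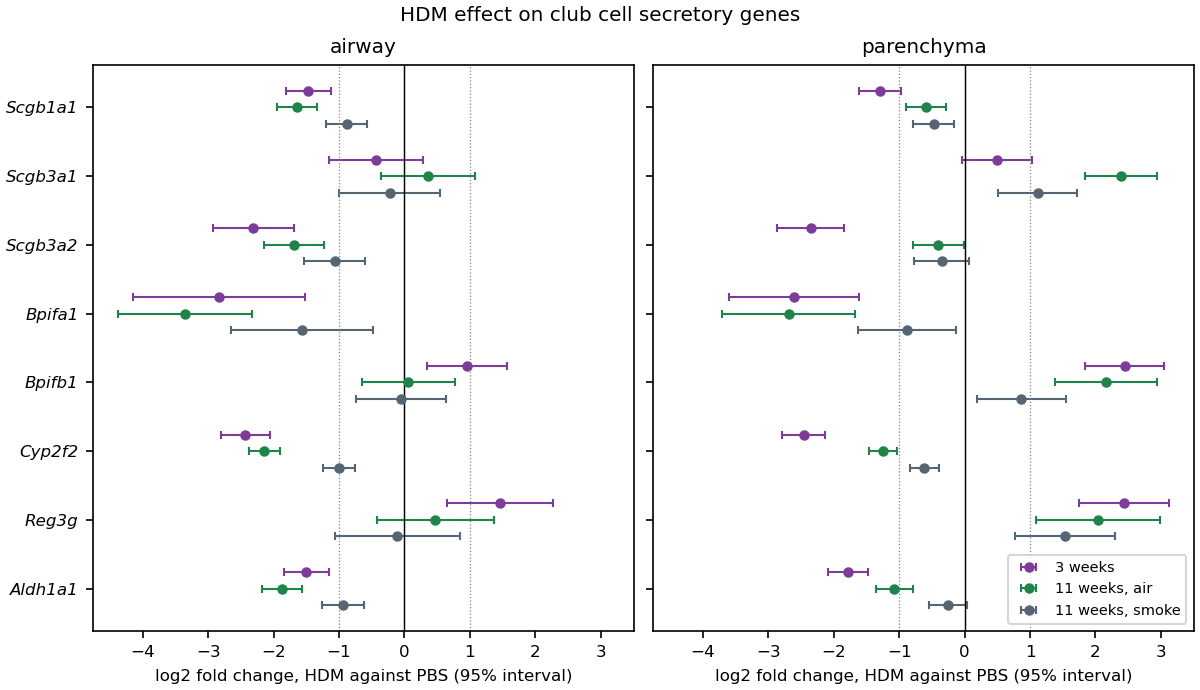
Log2 fold change of HDM against PBS for the 8 members in airway and parenchyma, at 3 weeks, at 11 weeks in air and at 11 weeks under smoke, with 95% intervals from limma-voom. Cyp2f2, Scgb1a1 and Bpifa1 lie left of 0 in the airway at each time, while Scgb3a1, Bpifb1 and Reg3g lie right of 0 in parenchyma.

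At 11 weeks, HDM in air left the airway with the same 5 genes called lower as at 3 weeks, and neither Bpifb1 nor Reg3g passed. Cyp2f2 was 2557, 3909 and 4973 CPM in PBS.AIR and 516, 864 and 1081 CPM in HDM.AIR airway, without overlap, at -2.14 ± 0.12 (limma-voom adjusted p = 1.4e-34). Scgb1a1 was 38178, 50232 and 55587 CPM against 8239, 17131 and 26137 CPM, without overlap, at -1.64 ± 0.16 (adjusted p = 5.8e-18). Aldh1a1 was 1855, 2816 and 4788 CPM against 448, 823 and 1046 CPM, at -1.88 ± 0.16 (adjusted p = 1.2e-21). These 3 genes were lower in every HDM library than in any PBS.AIR library. Bpifa1 fell 10.2-fold, from 1640, 3854 and 20818 CPM to 24.9, 598 and 1806 CPM (adjusted p = 9.6e-09). Scgb3a2 fell from 1223, 2390 and 6929 CPM to 315, 805 and 1379 CPM, at -1.69 ± 0.24 (adjusted p = 2.4e-10). For both, 9 of 10 HDM.AIR libraries were below every PBS.AIR library.

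Without X109 the same 5 genes were called in the 11-week airway. The log2 fold changes were then -2.07 for Cyp2f2, -1.58 for Scgb1a1, -1.80 for Aldh1a1, -2.90 for Bpifa1 and -1.56 for Scgb3a2. Bpifa1 ranged from 312 to 1806 CPM over the remaining 9 HDM.AIR libraries. The 3 genes that did not pass moved from 0.36 to 0.59 (Scgb3a1), from 0.06 to 0.37 (Bpifb1) and from 0.47 to 0.74 (Reg3g), still not past the test. In this comparison 61.1% of genes passed, 8.54% were called lower and 6.43% were lower without overlap, with X109 included.

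In 11-week parenchyma the enzymes and Bpifa1 fell while Scgb3a1, Bpifb1 and Reg3g rose. Scgb3a1 was 34.2, 72.5 and 293 CPM in PBS.AIR and 165.4, 326 and 2912 CPM in HDM.AIR parenchyma. In 6 of 10 HDM.AIR libraries it was above every PBS.AIR library, at 2.39 ± 0.28 (adjusted p = 2.2e-13). Bpifb1 was 4.67, 8.77 and 21.96 CPM against 15.0, 44.8 and 104.2 CPM, with 9 of 10 libraries above the PBS.AIR range, at 2.17 ± 0.40 (adjusted p = 8.1e-07). Reg3g was 3.76, 8.51 and 45.2 CPM against a lowest of 6.92 CPM and a median of 40.3 CPM, overlapping more, at 2.04 ± 0.48 (adjusted p = 0.00011). In the other direction, Bpifa1 was 14.9, 36.9 and 206 CPM against 1.89, 6.12 and 29.4 CPM, its lowest level of any group, at -2.69 ± 0.52 (adjusted p = 2.4e-06). Cyp2f2 was 1125, 1413 and 1536 CPM against 439, 532 and 709.7 CPM, and Aldh1a1 was 969, 1241 and 1474 CPM against 379.6, 530.4 and 775 CPM. Neither enzyme overlapped between the groups, with log2 fold changes of -1.25 ± 0.11 and -1.07 ± 0.15. Scgb1a1 fell by 0.59 ± 0.15 (adjusted p = 0.0005). Scgb3a2, at -0.40, did not pass (adjusted p = 0.071), and it passed without library X90 (-0.61, adjusted p = 0.0033), the highest HDM.AIR library for it.

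In this parenchymal comparison 59.5% of genes passed. The 3 members called higher and 3 called lower compare with 13.0% and 6.12% of all genes, and the 2 without overlap with 12.2% lower without overlap.

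The HDM change differed between the tissues at 11 weeks for 6 members, each lower in the airway relative to parenchyma (27.6% of genes passed). The differences were -1.05 for Scgb1a1 (adjusted p = 0.00012), -2.03 for Scgb3a1 (0.00038), -1.29 for Scgb3a2 (0.00069), -2.11 for Bpifb1 (0.0015), -0.89 for Cyp2f2 (1.6e-05) and -0.80 for Aldh1a1 (0.0026). Without X109 all 6 still passed, at -0.99 for Scgb1a1, -1.80 for Scgb3a1, -1.16 for Scgb3a2, -1.79 for Bpifb1, -0.82 for Cyp2f2 and -0.72 for Aldh1a1. Scgb1a1 thereby fell under the call threshold, as it did without X90 (-0.96). Bpifa1 differed by -0.67 (adjusted p = 0.54) and Reg3g by -1.57 (0.063), the latter passing without PBS.AIR parenchyma library X126 (-1.80, adjusted p = 0.038).

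The 11-week and 3-week HDM changes were compared in 1 fit of all libraries. In parenchyma the change was less negative or more positive at 11 weeks by 1.77 for Scgb3a1, 1.83 for Scgb3a2, 1.08 for Cyp2f2, 0.58 for Scgb1a1 and 0.58 for Aldh1a1, and 42.4% of genes passed. In the airway no member passed, with or without X109, where 28.4% of genes did. The PBS parenchyma itself differed between the weeks, with Scgb3a1 (-1.40), Scgb3a2 (-1.50), Bpifa1 (-1.39) and Reg3g (-1.12) called lower at 11 weeks, against 4.86% of genes. Scgb1a1 (-0.48) and Cyp2f2 (-0.41) also passed there. In PBS airway only Scgb3a2 passed (-0.64, adjusted p = 0.047), against 44.3% of genes. The week and everything that differs with it, including the HDM schedule and handling, cannot be told apart.

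**Figure D3:**
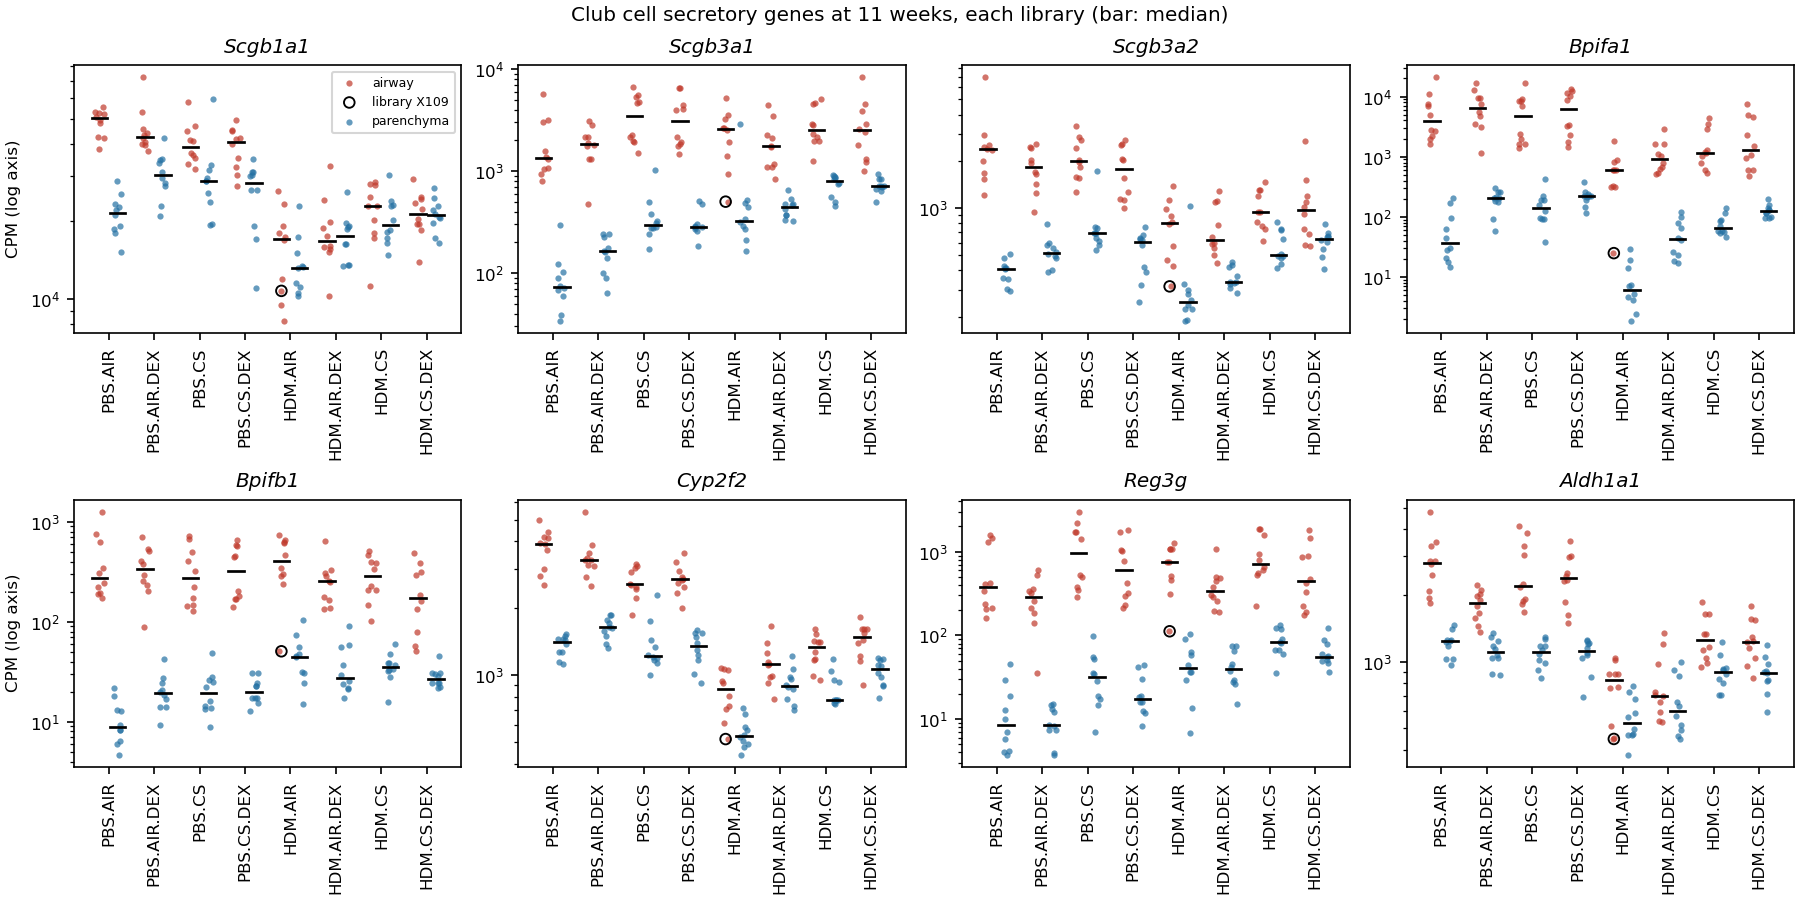
CPM (log axis) of the 8 members in every 11-week library, by exposure and tissue, 1 point per library, with library X109 ringed. In parenchyma, Bpifa1 is lowest in HDM.AIR and does not overlap with HDM.CS, and Scgb3a1 is lowest in PBS.AIR.

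With smoke alone, 6 of the 8 members passed as higher in parenchyma and none did in the airway. In parenchyma Scgb3a1 rose from 34.2, 72.5 and 293 CPM in PBS.AIR to 173.1, 294 and 1020 CPM in PBS.CS, at 2.10 ± 0.28 (limma-voom adjusted p = 2e-10). Scgb3a2 rose from 296, 408 and 506 CPM to 539, 688 and 1746 CPM, at 0.92 ± 0.21 (adjusted p = 0.00018), and was the only member whose groups did not overlap (5.78% of genes were higher without overlap). Bpifa1 rose from 14.9, 36.9 and 206 CPM to 38.3, 140.03 and 432 CPM, at 1.58 ± 0.38 (adjusted p = 0.00045). For Reg3g the log2 fold change was 1.56 ± 0.49 (adjusted p = 0.0071), for Bpifb1 1.01 ± 0.42 (0.049) and for Scgb1a1 0.44 (0.022). The results for Bpifb1 and Scgb1a1 rested on PBS.CS library X173, without which neither Bpifb1 (0.85, adjusted p = 0.13) nor Scgb1a1 (0.31, adjusted p = 0.12) passed. With no filter on low counts Reg3g (1.57, adjusted p = 0.082) and Bpifb1 (1.02, 0.19) did not pass. The enzymes gave 0.00 for Cyp2f2 and -0.14 for Aldh1a1, neither past the test. The 4 members called higher compare with 4.21% of all genes, and 35.9% of genes passed.

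In the smoke-exposed airway, Cyp2f2 alone passed, falling from 2557, 3909 and 4973 CPM to 1861, 2562 and 3150 CPM, at -0.51 ± 0.13 (adjusted p = 0.0031), against 13.7% of genes. Scgb3a1 was 799, 1334 and 5671 CPM in PBS.AIR and 1494, 3436 and 6703 CPM in PBS.CS airway, at 0.97 (adjusted p = 0.072). Without PBS.AIR library X5, its highest there, it passed at 1.18 (adjusted p = 0.022). Between the tissues the smoke change differed for Scgb3a2 only, by -1.10 (adjusted p = 0.036, against 3.73% of genes). That difference did not pass without X5 (-0.92, adjusted p = 0.11) or X173 (-0.94, adjusted p = 0.095), and Scgb1a1 passed without X126 (-0.75, adjusted p = 0.042).

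When smoke was added to HDM, 4 of the 5 genes that HDM lowered in the airway were higher there than with HDM alone, and all 5 were higher in parenchyma. Without X109, only Cyp2f2 and Aldh1a1 among them passed in the airway. The largest change was Bpifa1 in parenchyma, from 1.89, 6.12 and 29.4 CPM in HDM.AIR to 47.1, 65.2 and 138.8 CPM in HDM.CS. The groups did not overlap, and it rose 10.5-fold (log2 fold change 3.40 ± 0.52, adjusted p = 8.7e-08), where 0.535% of genes were higher without overlap and 0.899% were called higher. Cyp2f2 in parenchyma rose from 439, 532 and 709.7 CPM to 743, 774 and 1177 CPM, also without overlap, at 0.64 (adjusted p = 1.7e-06). Reg3g (1.06, adjusted p = 0.028) was the second called gene there, and Scgb3a2 (0.97), Scgb3a1 (0.83), Aldh1a1 (0.68) and Scgb1a1 (0.56) passed. Without HDM.AIR library X90, Scgb3a2 (1.18) and Scgb3a1 (1.15) were called as well, and without HDM.CS library X58, Scgb3a2 was called at 1.02. Neither Reg3g nor Scgb3a1 passed in edgeR (0.82, adjusted p = 0.17, and 0.28, 0.60), in DESeq2 (0.81, 0.16, and 0.28, 0.65) or with no filter on low counts (1.05, 0.18, and 0.82, 0.11). Bpifb1, at -0.29, did not pass (adjusted p = 0.56).

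In the airway, smoke added to HDM raised Cyp2f2 from 516, 864 and 1081 CPM to 954, 1339 and 1611 CPM (log2 fold change 0.62, adjusted p = 2.2e-05) and Aldh1a1 from 448, 823 and 1046 CPM to 952, 1252 and 1866 CPM (0.79, adjusted p = 3.7e-05). Bpifa1 rose by 1.65 ± 0.48 (adjusted p = 0.009) and Scgb1a1 by 0.48 (0.023). Both depended on X109, without which Bpifa1 was at 1.19 (adjusted p = 0.068) and Scgb1a1 at 0.42 (0.057). In this comparison 16.2% of genes passed and 0.674% were called higher.

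With smoke on both sides, the HDM change in the airway was smaller for the enzymes. Under smoke, Cyp2f2 fell by 1.01 ± 0.12 and Scgb1a1 by 0.88, both without overlap (0.565% of genes were lower without overlap). Scgb3a2 (-1.07), Bpifa1 (-1.56, adjusted p = 0.02) and Aldh1a1 (-0.94) also passed, against 33.1% of genes. Bpifa1 lost its call without PBS.CS library X153 (-1.35, adjusted p = 0.057) or with quality weights (-1.10, 0.10), Scgb3a2 was at -0.997 without HDM.CS library X57, and Cyp2f2 was at -0.978 without X153 and -0.997 without X57, no longer called. Under smoke, HDM parenchyma gave calls for Scgb3a1 (1.12, adjusted p = 0.0078) and Reg3g (1.54, adjusted p = 0.0027), against 2.71% of genes called higher, and Cyp2f2 fell by 0.61 (adjusted p = 2.3e-05). Scgb1a1 fell by 0.47 (adjusted p = 0.041), but did not pass without X173 (-0.37, adjusted p = 0.14) or X58 (-0.42, adjusted p = 0.086). Scgb3a1 did not pass in DESeq2 (0.97, adjusted p = 0.096), nor Reg3g with no filter on low counts (1.53, 0.064). Bpifb1 was at 0.87 (adjusted p = 0.097), and passed without X58 (1.00, adjusted p = 0.048).

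The interaction of HDM and smoke tested this difference directly. In the airway it was 1.13 ± 0.18 for Cyp2f2 (adjusted p = 4.4e-07), 0.94 for Aldh1a1 (0.0012) and 0.76 for Scgb1a1 (0.01), where 19.1% of genes passed, and 1.79 for Bpifa1 did not pass (0.083). Without X109 these were 1.06, 0.86, 0.70 (adjusted p = 0.02) and, for Bpifa1, 1.34 (0.2). Without X153 the interaction of Bpifa1 was 2.01 (adjusted p = 0.049) and that of Aldh1a1 was 1.02, and both were called. In parenchyma it was 1.81 for Bpifa1 (adjusted p = 0.019), 0.82 for Aldh1a1 (0.00076) and 0.63 for Cyp2f2 (0.00072), where 10.5% of genes were called. It was negative for 2 of the genes that each exposure alone raised, Scgb3a1 (-1.27, adjusted p = 0.011) and Bpifb1 (-1.30, adjusted p = 0.042). Scgb3a1 fell under the call threshold without X90 (-0.95, adjusted p = 0.049). Bpifb1 did not pass without X90 (-1.21, adjusted p = 0.065), X173 (-1.12, 0.099) or X58 (-1.17, 0.076). With no filter on low counts none of the 3 called here passed, at 1.79 for Bpifa1 (adjusted p = 0.22), -1.29 for Scgb3a1 (0.062) and -1.32 for Bpifb1 (0.17).

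Set against PBS and air, both exposures together gave the airway 5 members called lower, as with HDM alone, with log2 fold changes of -1.71 for Bpifa1, -1.52 for Cyp2f2, -1.25 for Scgb3a2, -1.16 for Scgb1a1 and -1.09 for Aldh1a1, against 5.82% of genes. Without PBS.AIR library X5, Aldh1a1 was at -0.98, no longer called, and Scgb3a1 passed (0.96, adjusted p = 0.028). In parenchyma Scgb3a1 was 454, 795 and 904 CPM in HDM.CS, above every PBS.AIR library (34.2 to 293 CPM), a 9.31-fold rise (adjusted p = 5.6e-19), and Reg3g rose 8.60-fold and Bpifb1 by 1.87 on the log2 scale, against 8.67% of genes called higher. Scgb3a2 (0.57), Cyp2f2 (-0.61) and Aldh1a1 (-0.39) passed there as well. Scgb1a1 differed from PBS.AIR by -0.03, and Bpifa1, at 0.70, did not pass (adjusted p = 0.12) except without X126 (0.92, adjusted p = 0.04).

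**Figure D4:**
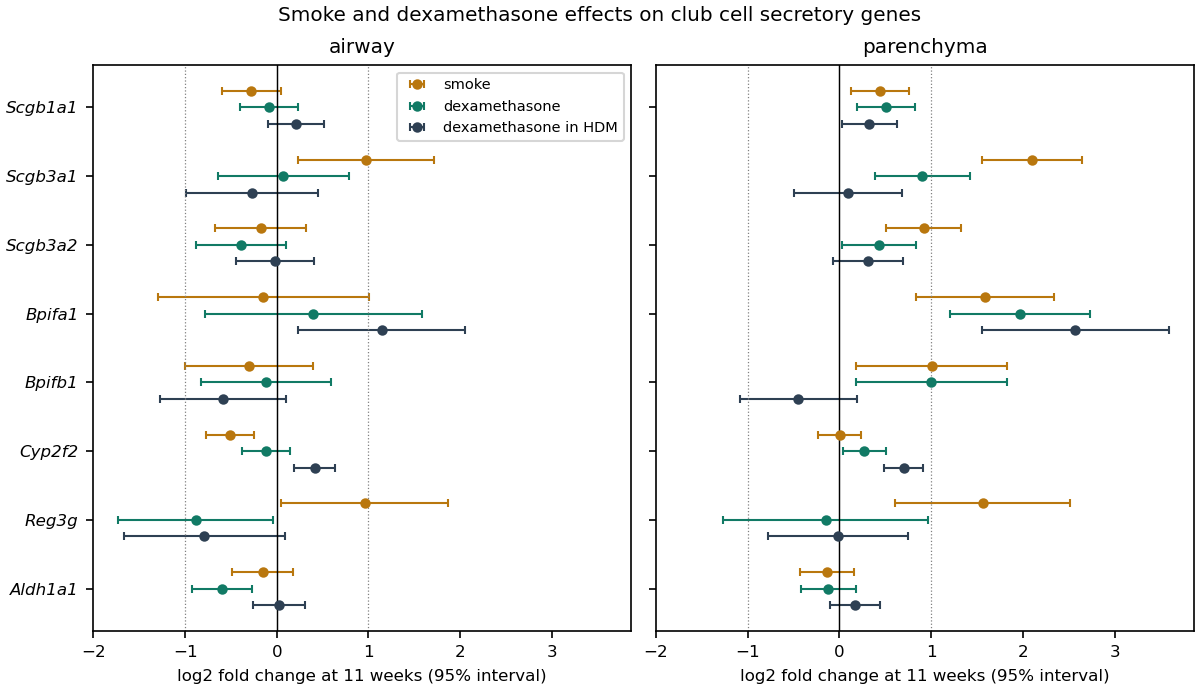
Log2 fold changes of the 8 members for smoke, dexamethasone, and dexamethasone in HDM mice at 11 weeks, in airway and parenchyma, with 95% intervals from limma-voom. In parenchyma the secretoglobin and antimicrobial genes lie right of 0 under smoke, and Bpifa1 has the largest dexamethasone changes, 1.97 and 2.57.

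Dexamethasone alone raised Bpifa1 in parenchyma, and 5 of the 8 members there did not pass. Bpifa1 was 14.9, 36.9 and 206 CPM in PBS.AIR and 59.3, 205 and 299 CPM in PBS.AIR.DEX parenchyma, with 5 of 10 treated libraries above all untreated ones, at 1.97 ± 0.39 (adjusted p = 3.6e-05). Scgb1a1 (0.51, adjusted p = 0.013) and Scgb3a1 (0.91, adjusted p = 0.0067) also passed, and Scgb3a1 was called without X126 (1.12) or PBS.AIR.DEX library X48 (1.04). It did not pass in edgeR (0.76, adjusted p = 0.099), in DESeq2 (0.75, 0.15) or with no filter on low counts (0.92, 0.13). These compare with 22.6% of genes passed and 1.02% called higher. In the airway only Aldh1a1 passed, from 1855, 2816 and 4788 CPM to 1372, 1854 and 2237 CPM (-0.60, adjusted p = 0.0064), against 14.9% of genes.

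In HDM mice, dexamethasone raised Bpifa1 5.96-fold in parenchyma, from 1.89, 6.12 and 29.4 CPM to 17.0, 42.9 and 121.99 CPM (adjusted p = 3.4e-05). In 6 of 10 treated libraries it was above every HDM.AIR library. Cyp2f2 rose from 439, 532 and 709.7 CPM to 699, 892 and 1220 CPM (log2 fold change 0.70, adjusted p = 4.9e-08), with 9 of 10 above the untreated range. In this comparison 28.5% of genes passed and 0.619% were called higher. Scgb1a1 and Scgb3a2 passed there only without X90 (0.41, adjusted p = 0.032, and 0.51, adjusted p = 0.027). In HDM airway only Cyp2f2 passed (0.42, adjusted p = 0.0026), against 28.6% of genes, and without X109 Bpifb1 passed as well (-0.90, adjusted p = 0.041). Without it Cyp2f2 was at 0.34 (adjusted p = 0.016). Bpifa1 in HDM airway was at 1.14 (adjusted p = 0.053), and at 0.69 (0.28) without X109.

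Under smoke, with or without HDM, dexamethasone moved no member past the test in limma-voom, where 7.86% to 16.9% of genes passed in the 4 comparisons. The interaction of HDM and dexamethasone passed for no member in airway, with or without X109 (4.62% of genes passed), or parenchyma (12.4%). In airway Cyp2f2 passed in edgeR (0.52, adjusted p = 0.049) and DESeq2 (0.54, 0.032), as did Aldh1a1 (0.67, 0.048, and 0.70, 0.032). Bpifb1 in parenchyma was at -1.45 (adjusted p = 0.055) and passed without X126 (-1.57, adjusted p = 0.043) or X48 (-1.50), and Cyp2f2 passed without X48 (0.46) or X90 (0.48, adjusted p = 0.04). The interaction of smoke and dexamethasone in parenchyma was -0.73 for Scgb1a1 (adjusted p = 0.049) and -0.99 for Scgb3a2 (0.038), against 3.22% of genes. Neither passed without PBS.CS library X173 (-0.60, adjusted p = 0.15, and -0.84, adjusted p = 0.12) or PBS.CS.DEX library X176 (-0.67, adjusted p = 0.10, and -0.87, adjusted p = 0.10), and Scgb1a1 did not without X48 (-0.74). Without X126 both Scgb3a2 (-1.03) and Scgb3a1 (-1.28, adjusted p = 0.041) were called, and Scgb3a2 was called without X48 (-1.04).

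The HDM change was also read with dexamethasone on both sides. In the airway the same 5 members were called lower, at -2.61 for Bpifa1, -1.61 for Cyp2f2, -1.35 for Scgb1a1, -1.32 for Scgb3a2 and -1.25 for Aldh1a1 on the log2 scale, against 6.24% of genes. In parenchyma Scgb3a1 (1.58) and Reg3g (2.18) were higher without overlap, against 7.87% of genes, and Bpifa1 was called lower (-2.08). Aldh1a1 (-0.78), Cyp2f2 (-0.81), Scgb1a1 (-0.77) and Scgb3a2 (-0.52) also passed there. Under both smoke and dexamethasone, Bpifa1 was the 1 called member in airway (-1.70, adjusted p = 0.013), with Cyp2f2 at -0.96, Aldh1a1 at -0.94, Bpifb1 at -0.89 (adjusted p = 0.034), Scgb1a1 at -0.87 and Scgb3a2 at -0.79 also past the test, and 33.6% of genes passing. Bpifb1 did not pass in edgeR (-0.75, adjusted p = 0.081) or DESeq2 (-0.76, 0.077). Without library X55, Bpifb1 (-1.02), Cyp2f2 (-1.01) and Aldh1a1 (-1.01) were called as well, and Bpifb1 was without X59 (-1.01). Scgb3a1 (1.26) and Reg3g (1.69) were called in parenchyma, against 3.35% of genes called higher, and Cyp2f2 passed at -0.32 (adjusted p = 0.034). The smoke change with dexamethasone on both sides passed for no member in airway in limma-voom, where Reg3g was at 1.28 (adjusted p = 0.082), and Reg3g passed in edgeR (1.38, 0.047) and DESeq2 (1.39, 0.032). In parenchyma it was 1.03 for Scgb3a1 (adjusted p = 0.0045), the 1 called member, against 1.97% of genes called higher, and -0.33 for Cyp2f2 (0.042). Without X48 Scgb3a1 was at 0.89, no longer called, and it did not pass in DESeq2 (0.97, adjusted p = 0.066) or with no filter on low counts (1.03, 0.058).

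Across the 10 exposures of the airway, mean Scgb1a1 ran from 52102 ± 16394 CPM (SD) in 3-week PBS to 16144 ± 5958 CPM in 11-week HDM.AIR. All 5 groups without HDM stood above all 5 with HDM, and the gap between them, from 38880 ± 7187 CPM in PBS.CS.DEX to 22090 ± 5505 CPM in HDM.CS, was the 1 step of 9 larger than the larger SD of its neighbours. Cyp2f2 gave the same division, from 2633 ± 414 CPM in PBS.CS to 1430 ± 269.7 CPM in HDM.CS.DEX, and a second step between HDM.AIR.DEX (1137 ± 253 CPM) and HDM.AIR (843 ± 201.3 CPM). Aldh1a1 and Scgb3a2 each had 1 such step, at the same division. For Scgb3a1, Bpifa1, Bpifb1 and Reg3g no neighbouring means in the airway were separated by more than the larger SD. In parenchyma the order of Bpifa1 ran from 220.4 ± 70.9 CPM in PBS.CS.DEX to 9.51 ± 8.79 CPM in HDM.AIR. Bpifa1 levels in PBS.AIR (68.9 ± 67.9 CPM) and HDM.CS (77.04 ± 29.8 CPM) were neighbours there.

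Over the group means the members fell into 2 patterns of shared variation, with Bpifa1 and, less evenly, Scgb3a2 correlated with both. Over the 20 group means of log2 CPM, Pearson's r was 0.96 between Scgb1a1 and Cyp2f2, 0.94 between Scgb1a1 and Aldh1a1 and 0.95 between Cyp2f2 and Aldh1a1. It was 0.96 between Bpifb1 and Reg3g and 0.95 between Scgb3a1 and Reg3g, but 0.17 between Scgb1a1 and Reg3g. Bpifa1 had r of 0.74 with Scgb1a1, 0.78 with Cyp2f2 and 0.81 with Aldh1a1. It had 0.79 with Scgb3a1, 0.76 with Bpifb1 and 0.72 with Reg3g. Scgb3a2 had r of 0.87 with Scgb1a1, 0.88 with Cyp2f2 and 0.91 with Aldh1a1. With Scgb3a1, Bpifb1 and Reg3g it had 0.67, 0.60 and 0.58. The 20 means hold both tissues, so the tissue difference enters these values. Among libraries of 1 group the division into 2 patterns was not kept, and in the airway Scgb1a1 alone stood apart. Over the airway libraries less their group means, 21 of 3 weeks and 80 of 11 weeks, r was 0.94 between Bpifb1 and Reg3g, 0.92 between Bpifa1 and Scgb3a1 and 0.91 between Bpifa1 and Reg3g, whereas it was 0.09 between Scgb1a1 and Bpifa1 and 0.66 between Scgb1a1 and Cyp2f2. Aldh1a1 correlated there more with Scgb3a1 (0.81) and Bpifb1 (0.74) than with Scgb1a1 (0.48). Cyp2f2 correlated with Scgb3a1 (0.70) about as much as with Scgb1a1. These airway values include X109, and without it r was 0.94 between Bpifb1 and Reg3g, 0.80 between Aldh1a1 and Scgb3a1, 0.65 between Scgb1a1 and Cyp2f2 and 0.05 between Scgb1a1 and Bpifa1. In the parenchyma libraries, 22 of 3 weeks and 80 of 11 weeks, it was 0.86 between Bpifb1 and Reg3g, 0.71 between Scgb1a1 and Cyp2f2 and 0.10 between Bpifa1 and Cyp2f2. Libraries share a dissection and a depth, so these correlations are descriptions. The correlation of the members with log2 library total within a tissue lay between -0.11 and 0.11.

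Within the airway groups Scgb1a1 also differed from the other members in its relation to cell type markers. The mean of the basal cell markers had r of 0.93 with Bpifa1, 0.92 with Reg3g, 0.89 with Bpifb1, 0.87 with Scgb3a1, 0.72 with Scgb3a2, 0.69 with Aldh1a1, 0.54 with Cyp2f2 and -0.01 with Scgb1a1. The mean of the ciliated cell markers had r of 0.89 with Cyp2f2, 0.88 with Aldh1a1, 0.85 with Scgb3a2, 0.84 with Scgb3a1, 0.77 with Bpifa1, 0.76 with Bpifb1, 0.73 with Reg3g and 0.56 with Scgb1a1. The other club cell genes had r of 0.94 with Aldh1a1, 0.91 with Cyp2f2, 0.85 with Scgb3a2, 0.84 with Scgb3a1, 0.77 with Bpifb1, 0.75 with Bpifa1, 0.74 with Reg3g and 0.60 with Scgb1a1. The alveolar type II markers had r of -0.80 with Reg3g, -0.75 with Scgb3a1, -0.61 with Aldh1a1 and 0.01 with Scgb1a1. Without X109 the r of Scgb1a1 with the basal, ciliated and other club cell genes was -0.05, 0.55 and 0.59. How much large airway a dissected sample held was not measured, and its part in the spread of Bpifa1, Bpifb1, Reg3g and Scgb3a1 was not tested.

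**Figure D5:**
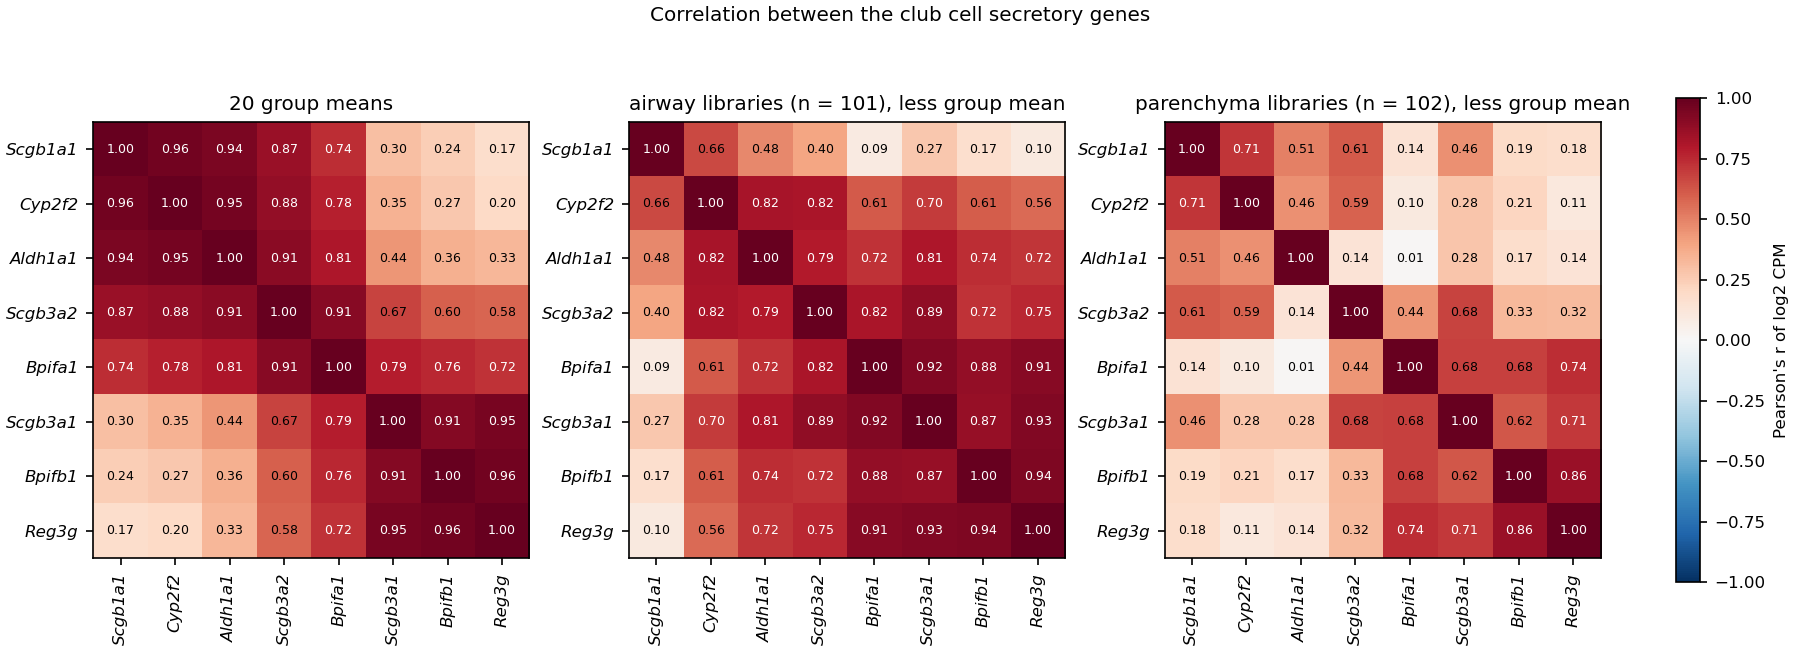
Pearson's r between the 8 members over the 20 group means, over the airway libraries less their group means, and over the parenchyma libraries less theirs. Bpifb1, Reg3g and Scgb3a1 correlate strongly with each other in the airway (0.93 and 0.94 with Reg3g), and Scgb1a1 with Bpifa1 does not (0.09).

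The genes most like each member were taken from 15116 genes with a mean of at least 1 CPM over all libraries. Over the 20 group means, Bpifa1 was most like Krt15, a basal keratin (r = 0.98), followed by Sult1d1 and Cyp4a12b, and Krt15 also led within the airway groups (0.95), ahead of Otx1 and Cdh26. Bpifb1 was most like Ltf (0.99), Cldn22 and Wnt7b over the groups, and within airway groups most like Agr2 (0.94), Reg3g and Chad. Reg3g was most like Ern2 (0.98), Prom1 and Serpinb12, and within groups like Oit1 (0.95), Fxyd3 and Kcne3. Scgb3a1 was most like Mst1 (0.99), Klk11 and Nr1i2, and within groups like Ifitm1 (0.95), Lypd2 and Gtsf1l. For the enzymes the nearest genes within the airway groups included cilium genes, Dnali1 (0.90), D430036J16Rik and Drc3 for Cyp2f2, and Cdhr3 (0.90), BC051019 and Elmod1 for Aldh1a1. Over the groups they were Gfra1 (0.98), Net1 and Bbs2 for Cyp2f2 and Gstm6 (0.98), Bbs7 and Pir for Aldh1a1. Scgb3a2 was most like Gm26717 (0.98), Gm16136 and Bbof1, and within groups like Spa17 (0.94), Cfap97d2 and Fam183b. Scgb1a1 had the weakest match within groups, Fhdc1 at 0.76, with Ascc1 and Cckar, and over the groups was most like Ppp2r2b (0.97), Perp and Rd3.

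Other genes of the club cell fell with HDM beside the members. Of 33 other club cell genes, mostly enzymes of xenobiotic and glutathione metabolism, 29 passed as lower and 2 as higher in 3-week HDM airway, with a median log2 fold change of -1.15 against -0.07 over all genes. Upk3a fell by 3.10 and Cyp2a5, a coumarin hydroxylase, by 3.08. The 2 that rose were Tff2 (1.62) and Pigr (1.61), the receptor that carries IgA across epithelium. In 3-week parenchyma 26 were lower and 2 higher (median -1.08), in 11-week HDM.AIR airway 31 and 2 (median -1.20, and -1.16 without X109), and in 11-week HDM.AIR parenchyma 16 and 3 (median -0.39). The share of all genes that passed was 74.6% in 3-week airway and 77.7% in 3-week parenchyma. It was 61.1% in 11-week airway and 59.5% in 11-week parenchyma. In smoke-exposed parenchyma the direction turned, with 15 higher and 6 lower (median 0.28), and in the smoke-exposed airway 7 were lower and 1, Pigr (1.18), was higher. Dexamethasone alone raised 12 and lowered 1 in parenchyma. Of all genes, 35.9% passed with smoke in parenchyma, 13.7% with smoke in airway and 22.6% with dexamethasone in parenchyma. Of 26 secretoglobin, BPI-fold, Reg, Aldh1a and Cyp2 relatives, 11 could be tested, and 7 of them were lower and 2 higher in 3-week HDM airway. Cyp2a4 fell by 3.40 and Scgb1c1 by 3.02, where counts of Cyp2a4 and Cyp2a5 may be split between near-identical copies. Reg3b was not among the tested genes, at a mean of 0.00245 CPM in PBS airway and 0.0726 CPM in HDM airway.

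The factors that specify club cells had a smaller median change. Of 24 identity regulators, 15 were lower and 4 higher in 3-week HDM airway, with a median of -0.51. The 3 called lower, among them Nfib (-2.04) and Hey1 (-1.66), compare with 11.8% of all genes, and the 19 that passed with 74.6%. Nkx2-1, the lung epithelial homeobox factor, fell by 0.58 (adjusted p = 9.7e-05) and Foxa2 by 0.90 (adjusted p = 4.4e-09) in airway, and by 0.75 and 1.24 in parenchyma. The list gave 14 lower and 3 higher in 11-week HDM.AIR airway, where 61.1% of all genes passed. Genes of the IL-17 and IL-22 axis, a pathway that induces Reg3g in epithelium, went the other way. Of 12 tested, 10 were higher in 3-week HDM airway and 9 in parenchyma, where 74.6% and 77.7% of all genes passed. In 11-week HDM.AIR airway without X109, 10 of 13 tested were higher and 3 lower, where 59.9% passed and Reg3g did not. Within airway groups without X109, r between Reg3g and the mean of 12 axis genes was -0.06. The part of this axis in the Reg3g changes was not tested. Il17a rose by 4.06 and Lcn2, an epithelial and neutrophil siderophore-binding protein, by 3.37, from a mean of 220.4 to 2230 CPM. Lcn2 also rose by 4.10 in 3-week parenchyma and by 3.69 with smoke alone in parenchyma, where Reg3g rose too, and by 2.79 with smoke in the airway, where Reg3g did not pass. In the smoke-exposed airway 6 of 13 tested axis genes were higher, S100a9 among them (1.38), where 13.7% of all genes passed.

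Markers of other cell types moved in the same comparisons, and their part in the members' results was not tested. Of all genes, 74.6% passed in 3-week HDM airway, 77.7% in 3-week HDM parenchyma and 35.9% in smoke-exposed parenchyma. Of 12 ciliated cell markers, 10 fell in 3-week HDM airway, and their summed level was 1240 to 2179 CPM in PBS and 520 to 1785 CPM in HDM libraries. Tppp3 (-1.23) and Sntn (-1.15) led them, while the ciliary factor Foxj1 was at 0.03 (adjusted p = 0.89). In 3-week parenchyma the ciliated sum was 642 to 983 CPM against 271 to 419 CPM. In 11-week HDM.AIR parenchyma 6 ciliated markers rose and 1 fell, where 59.5% of all genes passed. In 11-week HDM.AIR airway without X109 all 12 were lower, where 59.9% of all genes passed. Of 12 goblet cell markers 11 rose in each tissue at 3 weeks, from sums of 196.2 to 1155 CPM to 719 to 9282 CPM in airway, led by Clca1 (6.46) and Tff1 (4.96), with Muc5ac at 4.39. In smoke-exposed parenchyma 6 goblet markers rose and none fell, their sum reaching 123.6 to 220.3 CPM against 43.7 to 86.4 CPM. Of 12 leukocyte markers all rose in HDM airway and parenchyma at 3 weeks, led in airway by Itgax (2.83) and Itgam (2.75). Their sum went from 363 to 663 CPM to 806 to 2287 CPM in airway and from 503 to 675 CPM to 1946 to 2329 CPM in parenchyma. No marker of these 3 lists was at 0 throughout any of these groups.

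Pan-epithelial, basal, alveolar and cardiac muscle markers were read in the same comparisons. With HDM at 3 weeks, 74.6% of all genes passed in airway and 77.7% in parenchyma. Of 8 pan-epithelial markers 3 fell and 1 rose in 3-week HDM airway, their sum being 1062 to 1425 CPM in PBS and 844 to 1168 CPM in HDM libraries, and Epcam was at -0.17 (adjusted p = 0.089). In 3-week parenchyma 2 fell and 1 rose. In 11-week HDM.AIR airway without X109, 5 of the 8 pan-epithelial markers fell and none rose, where 59.9% of all genes passed. Their median log2 fold change was -0.28, against -1.57 for the members, of which 5 of 8 also fell. Of 8 basal cell markers 3 fell and 1 rose in HDM airway (sum 61.5 to 304 CPM against 24.2 to 322 CPM), with Dlk2 (-1.42) and Krt15 (-1.37) called. In 3-week parenchyma 2 basal markers rose, from a sum of 2.57 to 6.89 CPM to 7.80 to 15.4 CPM, beside Bpifb1 and Reg3g. In 11-week HDM.AIR parenchyma 3 rose, from a sum of 2.34 to 3.93 CPM to 6.76 to 16.4 CPM, where 59.5% of all genes passed. No basal marker was at 0 throughout these groups. Of 9 alveolar type II markers 3 fell and 1 rose in HDM airway, with Sftpc at -0.74 (adjusted p = 0.0081), and of 8 alveolar type I markers 6 fell, led by Hopx (-1.52) and Rtkn2 (-1.52). All 8 cardiac muscle markers fell in HDM airway, among them Nppa (-3.30) and Myl7 (-3.09), from a sum of 366 to 5514 CPM to 45.7 to 1122 CPM, and none passed in parenchyma, where the sum was 36.99 to 48.5 CPM in PBS.

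The remaining lists were small or barely expressed. Of all genes, 74.6% passed in 3-week HDM airway, 13.7% and 35.9% with smoke in airway and parenchyma, and 14.9% and 22.6% with dexamethasone. Of 8 airway gland markers 5 were tested, and 2 rose and 1 fell in 3-week HDM airway, Kcnn4 at 1.56 and Azgp1 at -1.80. Of 8 squamous markers 3 were tested and all fell, Krt4 by 2.08 and Krt10 by 1.29, from a sum of 4.10 to 8.67 CPM. Of 10 thyroid, thymus and cartilage markers 4 were tested, with Dntt at 1.96 and Col2a1 at -1.92. The smoke check genes all 7 rose with smoke in each tissue, Cyp1a1 by 3.19 and Ahrr by 2.45 in the airway, while Cyp1a1 fell by 4.74 and Hmox1 rose by 2.17 in 3-week HDM airway. Of 6 glucocorticoid response genes 3 were lower and none higher in dexamethasone-treated airway, and 3 were lower and 1 higher in parenchyma. Fkbp5, a classical glucocorticoid target, was at -0.02 (adjusted p = 0.96) in airway and 0.08 (adjusted p = 0.85) in parenchyma, though it was higher by 1.25 and Dusp1 lower by 1.29 in 3-week HDM airway. In the smoke-exposed airway Clca1 fell by 3.54, Slc26a4 rose by 3.30, Tff2 fell by 1.17, Myh6 fell by 1.05, and the leukocyte genes Csf3r (1.32) and Itgax (1.05) rose.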

How the data were processed

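Bulk RNA-seq libraries of dissected airway and parenchyma were analysed from the table of estimated counts per gene deposited by the authors. Per the labels, bcl2fastq 2.20.0.422, STAR 2.5.1b, RSEM 1.2.31 and kallisto 0.44.0 were used with mm10. Which of the quantifiers made the table, and whether counting used strand, was not given in the sources used here. Of non-zero values 20.3% were not whole, and counts were rounded. Of 43346 identifiers 42462 matched GENCODE M21 with the version ignored, which gave symbols and exonic lengths.

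Groups were taken from the labels. The tests and the adjusted p threshold followed the study's supplementary methods, and the log2 fold change threshold followed its results. Here limma-voom (limma 3.58.1, edgeR 4.0.16, R 4.3.3) was run with TMM factors, and Benjamini-Hochberg adjustment was over all genes tested. The study's filter was read as the CPM equivalent of 10 counts in at least 9 libraries. A CPM minimum of 10 was run as an alternative reading. The 3-week fit held 43 libraries and 17377 genes, the 11-week fit 160 libraries and 18250 genes, and the comparisons between weeks 203 libraries and 18528 genes. Each fit had 1 mean per group and no other term. Levels are CPM with TMM factors over all libraries, log2 CPM for correlations used a prior count of 2, and TPM was computed from counts and exonic length. The scripts were tested on simulated data. Figures were drawn with Python 3.11.15 and matplotlib 3.10.9, on numpy 2.4.6 and pandas 2.3.3.

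The members and gene lists were chosen with earlier results of these data known. The genes named are the 8 members, for each the 3 genes of highest Pearson r over group means and over airway libraries less group means, the 2 called genes of largest change per list in the 3-week HDM airway and the smoke-exposed airway, and Lcn2, Reg3b, Foxj1, Muc5ac, Sftpc, Epcam, Nkx2-1, Foxa2, Cyp1a1 and Fkbp5. Tff2 and Pigr in the HDM airway were named after their values were seen. Krt5, Krt15, Sftpc, Ager and Bpifa1 were read to check the labelled tissue of X109. The lists were other club cell genes, relatives, identity regulators, the IL-17 and IL-22 axis, markers of goblet, ciliated, basal, gland, squamous, alveolar, pan-epithelial, leukocyte, cardiac and thyroid, thymus and cartilage cells, and check genes for smoke and glucocorticoid. Alternatives were edgeR, DESeq2 1.42.0, DESeq2 size factors, other filters, quality weights, members left out of the scaling, other sets of libraries in a fit, and leaving out libraries. Promoter sequences are from RefSeq. No sequence was printed for the other 3 members.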

Additional observations from a re-analysis of the deposited data

Results flagged for a closer look

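Each of the 8 members was tested in the 18 groups of 10 libraries, and 27 times a group held a library set apart from the other 9 by its gap. The cutoff flags about 1 in 20 groups, or 7.2, only where values are normally distributed and independent. It was applied to CPM without a log, and the members correlate within libraries, so 27 against 7.2 is not a test. The 27 flags came from 15 libraries, and each flagged value was the highest of its group. Several libraries carried more than 1 flag. Parenchyma PBS.CS library X173 had 59555 CPM of Scgb1a1, 1020 of Scgb3a1, 1746 of Scgb3a2, 432 of Bpifa1, 48.9 of Bpifb1 and 97.2 of Reg3g. Airway PBS.AIR library X5 had 5671 CPM of Scgb3a1, 6929 of Scgb3a2 and 20818 of Bpifa1. Airway HDM.AIR.DEX library X151 had 2898 CPM of Bpifa1, 648 of Bpifb1 and 1084 of Reg3g. Parenchyma HDM.AIR library X90 had 2912 CPM of Scgb3a1, the next library being at 519, and 1032 of Scgb3a2. Airway PBS.AIR.DEX library X187 had 72329 CPM of Scgb1a1 and 5443 of Cyp2f2, and airway HDM.CS.DEX library X59 had 8256 CPM of Scgb3a1 and 2714 of Scgb3a2. Single flags were Scgb3a1 at 9493 CPM in 3-week HDM airway library X63 and at 293 CPM in PBS.AIR parenchyma library X126, Aldh1a1 at 582 CPM in 3-week HDM parenchyma library X4, and Scgb3a2 at 792 CPM in PBS.AIR.DEX parenchyma library X68. Others were Bpifa1 at 1806 CPM in HDM.AIR airway library X9, 16617 CPM in PBS.CS airway library X153 and 380.4 CPM in PBS.CS.DEX parenchyma library X156. The last were Scgb1a1 at 25920 CPM in HDM.AIR.DEX parenchyma library X172 and Bpifb1 at 45.4 CPM in HDM.CS.DEX parenchyma library X160.

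Of 88 tested differences of a change between tissues, exposures or weeks, 23 passed in limma-voom. The HDM change differed between airway and parenchyma by -1.49 for Bpifb1 at 3 weeks. At 11 weeks in air it differed by -1.05 for Scgb1a1, -2.03 for Scgb3a1, -1.29 for Scgb3a2, -2.11 for Bpifb1, -0.89 for Cyp2f2 and -0.80 for Aldh1a1. The smoke change differed between the tissues by -1.10 for Scgb3a2. The HDM change differed between smoke and air in the airway by 0.76 for Scgb1a1, 1.13 for Cyp2f2 and 0.94 for Aldh1a1. In parenchyma it differed by -1.27 for Scgb3a1, 1.81 for Bpifa1, -1.30 for Bpifb1, 0.63 for Cyp2f2 and 0.82 for Aldh1a1. The dexamethasone change in parenchyma differed between smoke and air by -0.73 for Scgb1a1 and -0.99 for Scgb3a2. The HDM change in parenchyma differed between 11 and 3 weeks by 0.58 for Scgb1a1, 1.77 for Scgb3a1, 1.83 for Scgb3a2, 1.08 for Cyp2f2 and 0.58 for Aldh1a1. What these patterns come from was not tested.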

How the results depend on the processing

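No member reversed its direction in any called result under the alternatives run. Over the counts of members called per comparison, 377 values under alternatives other than leaving out a library stayed within 1.5 times and 23 moved, and 206 and 19 did so when 1 library was left out. At 3 weeks each library was left out in turn. At 11 weeks only 1 library of each group was left out, so dependence on the other libraries was not tested there. With quality weights, the count became 2 (1 in the main fit) for the tissue difference of HDM at 3 weeks, 0 (3) for HDM under smoke in airway, 1 (0) for dexamethasone in HDM airway and in HDM and smoke airway, 2 (1) for HDM under smoke and dexamethasone in airway, 2 (1) for smoke under dexamethasone in parenchyma, 1 (0) for HDM by dexamethasone in parenchyma, 2 (4) for the tissue difference of HDM in air and 0 (1) for that of smoke. In edgeR and DESeq2 it became 1 (0) for smoke under dexamethasone in airway, 1 (2) for HDM under smoke in parenchyma and 1 (2) for smoke in HDM parenchyma. Without a filter it became 1 (2), 2 (4) and 1 (2) for HDM under smoke, smoke and smoke in HDM in parenchyma, 0 (1) for smoke under dexamethasone and 0 (3) for HDM by smoke in parenchyma. A CPM minimum of 10, or each tissue fitted apart, gave 1 (0) for HDM by dexamethasone in parenchyma, and both weeks in 1 fit gave 0 (1) for the tissue difference of smoke. The cause of these moves was not tested.

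Leaving out 1 library, counts ran from 1 to 2 for the tissue difference of HDM at 3 weeks (2 without X63), 0 to 1 for smoke in airway (1 without X5), 0 to 1 for its tissue difference (0 without X5 or X173), 2 to 2 for dexamethasone in parenchyma (X126, X48), 0 to 1 for HDM by dexamethasone (X126, X48 give 1), 0 to 2 for smoke by dexamethasone (2 without X126, 1 without X48) and 0 to 1 for smoke under dexamethasone in parenchyma (0 without X48). They ran from 0 to 1 for smoke in HDM airway (0 without X109), 3 to 4 for it in parenchyma (4 without X90), 1 to 3 for HDM by smoke in parenchyma (1 without X90) and in airway (3 without X153), 1 to 1 for HDM under smoke in airway (X153, X57) and 2 to 4 for HDM under smoke and dexamethasone in airway (4 without X55, 2 without X59). Leaving out X109 was chosen after seeing the data. Single members kept their side of the test in 3090 of the other values, with 60 newly past it and 50 no longer past it. No paired analysis was possible because no number is shared between groups. The codes alternate between airway and parenchyma, but the labels do not say that neighbours share a mouse, and order was not used to pair libraries. The lowest group medians in parenchyma were 6.12 CPM for Bpifa1 in HDM.AIR, 8.77 CPM for Bpifb1 in PBS.AIR and 8.42 CPM for Reg3g in PBS.AIR.DEX. The effect of depth on their tests was not examined.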
